A study of Mus musculus with 31 samples.

Results

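The data described here are the levels of 10 genes that encode the glucocorticoid receptor (GR), the chaperones and immunophilins that hold it, the enzyme that makes its ligand and its coregulators, out of 39179 genes counted. These genes are *Nr3c1*, *Nr3c2*, *Hsd11b1*, *Hsp90aa1*, *Hsp90ab1*, *Ptges3*, *Fkbp5*, *Fkbp4*, *Ncoa2* and *Nrip1*, and each was taken by its symbol. They were chosen for their place in the pathway, with earlier results of these data known, and not by a threshold on measured values.

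The GR is a nuclear receptor that waits in the cytoplasm in a complex with HSP90 and helper proteins, binds glucocorticoid (GC), and enters the nucleus to raise or lower transcription together with coregulators. Immunophilins in this complex set how well ligand is bound, and *Fkbp5* is itself a textbook target of the receptor whose product lowers its affinity for hormone. In skin, topical GCs are used for their anti-inflammatory action, and inside cells the enzyme encoded by *Hsd11b1* can regenerate active hormone from its inactive 11-keto form.

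The study asked whether GCs act on melanoma cells themselves. RNA was sequenced from the 3′ ends of messenger RNA of tumors *in vivo* and of cultured cells *in vitro*. Both came from line 20967, a mouse melanoma line of Nras+LSL-G12D;Tyr::CreERT2+/o origin on C57BL/6, either parental or with its GR gene edited (GR KO). The edited cells were made by transfecting CRISPR ribonucleoprotein, were grown from single-cell colonies and were checked by western blot, so that genotype and clonal origin cannot be told apart.

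The parental control group and the parental GC group each held 5 tumors, as did the GR KO control group and the GR KO GC group. All tumors were implanted into the skin of wild-type C57BL/6 hosts, whose own cells within a tumor keep the GR in every group. GC-treated mice received clobetasol propionate 0.05% ointment 3 times a week, and controls received the emollient cream cetraben, so that drug and vehicle differed together. The age of the mice and the day of harvest of these tumors were not clear from the sources used here. *In vitro*, DMSO was given for 48 hours to 3 parental and 3 GR KO cultures, and clobetasol propionate for the same time to 2 parental and 3 GR KO cultures. The labels give its dose as 10 µM in the treatment field and as 1 µM in the library names.

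Reads assigned to genes numbered 15528066 to 26386770 for a tumor and 14441166 to 22463188 for a culture. Here 3 counts, taken as the floor, are worth 0.114 to 0.208 CPM, the count scaled to a common library size. Such floors cover counting error only. Levels are CPM scaled by the TMM method within tumors or within cultures, and they were not ranked between genes. Each tumor was one mouse, whereas nothing states that the cultures were separate, so that their p-values measure only the spread between these samples, which may be technical. As a check for repeat deposits of a library, all 50 pairs of replicates differed by more than sampling noise (mean chi-square of a gene 8.26 to 411), which does not show whether the cultures were separate.

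The labelled cell type was compared with melanocyte lineage markers. *Mitf* had 1407 counts over the 11 cultures and 13059 over the 20 tumors. *Sox10*, *Dct* and *Mlana* had 0 counts in every culture, *Pmel* 23 and *Tyrp1* 4, while *Tyr* had 0 counts in all 31 libraries. In tumors, *Sox10* had 597 counts, *Dct* 1001 and *Pmel* 794. The cultured line therefore carried the melanoma label with most defining melanocyte transcripts at or near 0.

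**Figure D1:**
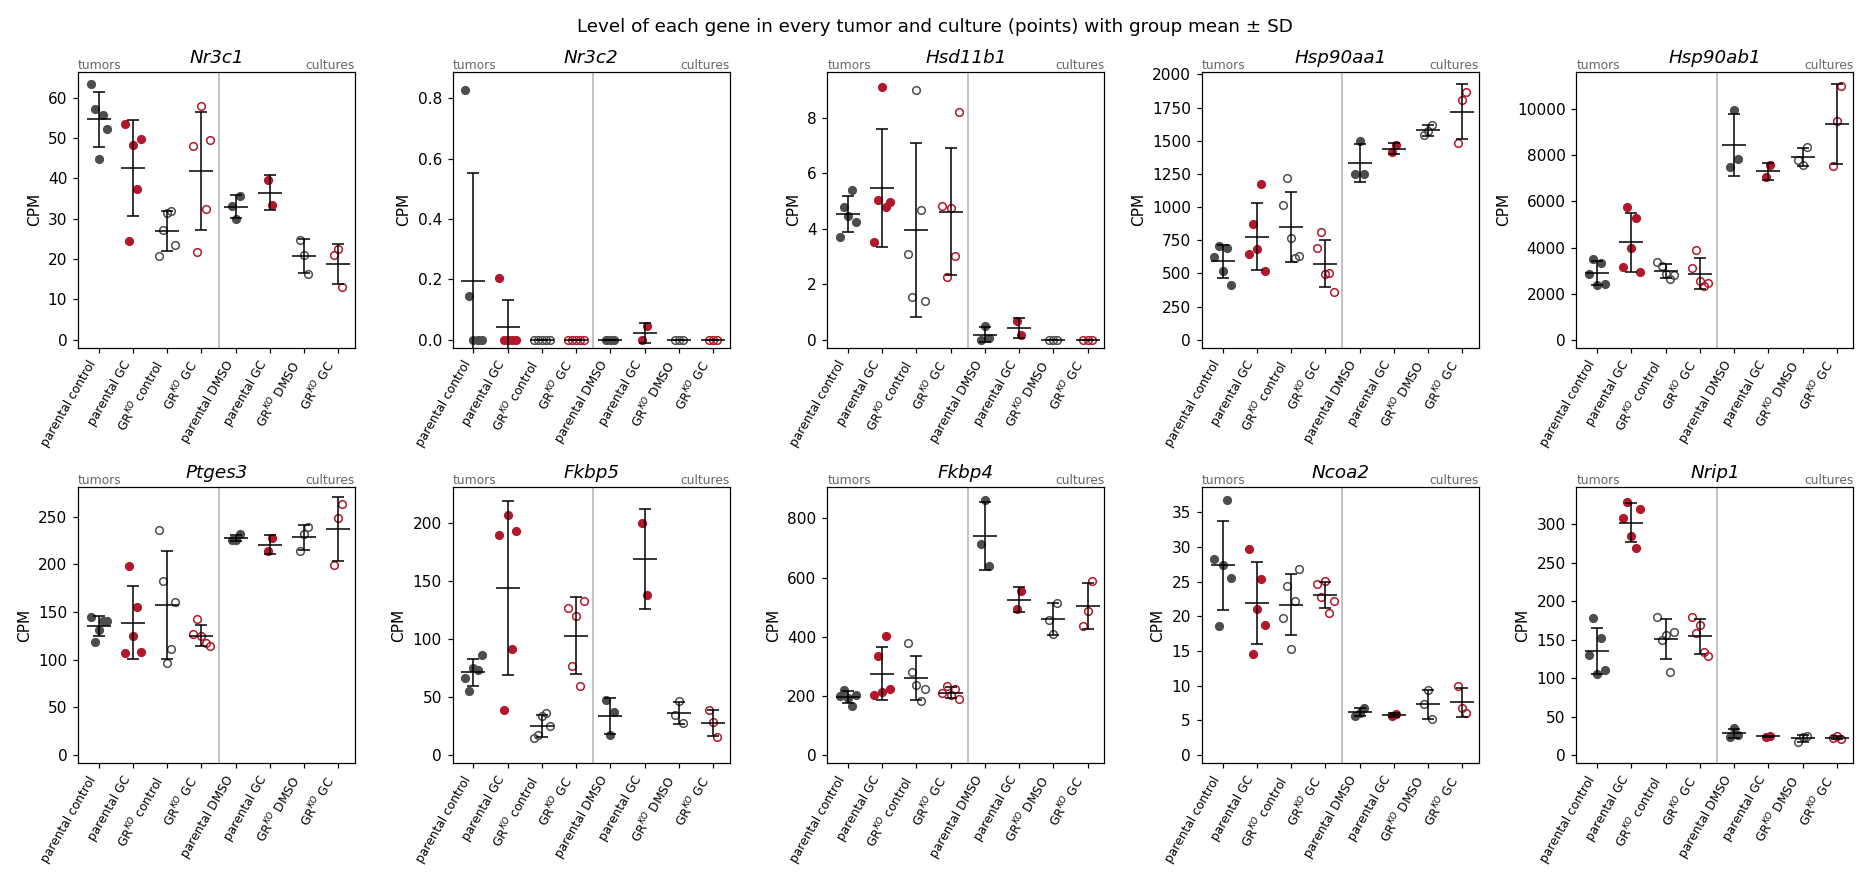
TMM-scaled CPM of the 10 genes in each of 31 libraries by group, on a scale that differs between panels, with filled points for parental and open points for GR KO samples, gray for control or DMSO and red for GC; bars give mean ± SD. The 5 parental GC tumors sit between 269 and 330 CPM for *Nrip1*, above all other tumors.

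Of the 10 genes, 9 passed the filter for low counts in tumors and 8 in cultures, and *Nr3c2* passed in neither. DEGs are genes with an adjusted p under 0.05 from edgeR, adjusted over all genes tested, whose linear fold change is 1.5 or more. Over 10 comparisons within tumors or within cultures there were 9 such calls, which fell on 4 genes: *Fkbp5* with 4, *Nr3c1* and *Nrip1* with 2 each and *Fkbp4* with 1. *Hsp90aa1*, *Hsp90ab1*, *Ptges3* and *Ncoa2* were tested in all 10 and were DEGs in 0 of them, and *Hsd11b1* was a DEG in 0 of the 5 within tumors, where alone it was tested.

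GC treatment of parental tumors changed 1 of the 9 genes tested (*Nrip1*), where 0.779% of all 15919 genes were DEGs. The median log2 fold change was 0.40 for the 9 genes and 0.00 for all genes. GC in GR KO tumors again changed 1 of 9, in this case *Fkbp5*, beside 6.42% of all genes, with medians of 0.03 and 0.05. Between control tumors of the 2 genotypes, 2 of 9 differed (*Nr3c1* and *Fkbp5*) beside 2.25% of all genes, with medians of 0.04 and -0.04. Between GC-treated tumors of the 2 genotypes, 1 of 9 differed (*Nrip1*) beside 0.634% of all genes, with medians of -0.38 and 0.01. When the GC effect in GR KO tumors was taken from that in parental tumors, edgeR called 0 of 9 beside 0.195% of all genes, with medians of 0.37 and -0.04. In that test 5 of the 9 and 3192 of all 15919 genes had an unadjusted p under 0.05, and DESeq2 called 1 of the 9, *Nrip1*. On simulated counts DESeq2 made more false calls than edgeR, which limits every call given here by DESeq2 and not by edgeR. These counts were drawn with the spread that edgeR estimated, a setting that may favor edgeR. In simulated tumors edgeR missed some of the changes, so that a gene it did not call may still differ.

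In cultures, GC changed 1 of 8 genes in parental cells (*Fkbp5*), where 0.878% of 12525 genes were DEGs, with medians of -0.07 and -5.16e-04. In GR KO cells both edgeR and DESeq2 called 0 of 8 and 0% of all genes, while 237 of all genes had an unadjusted p under 0.05 from edgeR and the medians were 0.05 and 0.02. For the difference between these effects edgeR called 0 of 8 beside 0.295% of all genes, 2 of the 8 and 1075 of all 12525 genes had an unadjusted p under 0.05, and DESeq2 called 1 of the 8, *Fkbp5*. The medians were -0.12 and -0.03. Between DMSO-treated cells of the 2 genotypes 1 of 8 differed (*Fkbp4*) beside 8.22% of all genes, with medians of -0.04 and 0.01. With GC, 2 of 8 differed between genotypes (*Nr3c1* and *Fkbp5*) beside 5.55% of all genes, with medians of 0.02 for both. Comparisons within an experiment share groups, and their values for a gene are not independent of each other.

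**Figure D2:**
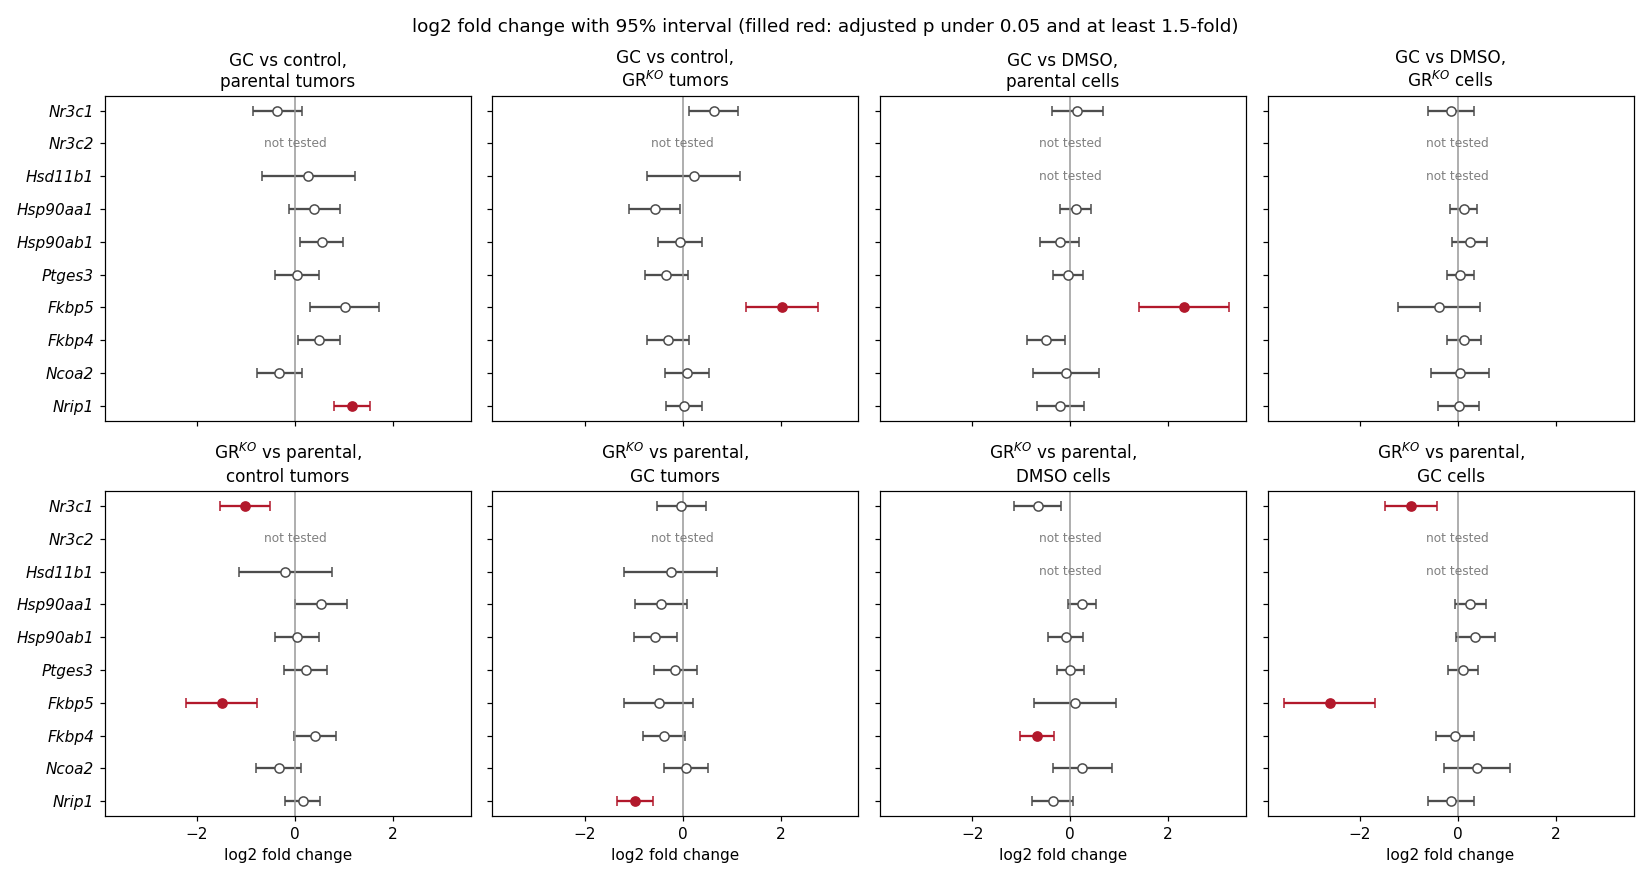
Log2 fold change with its 95% interval from edgeR for each gene in the 8 comparisons of GC with control or of GR KO with parental samples; filled red points are DEGs and open points are not. Intervals of *Nrip1* after GC lay at 0.79 to 1.53 in parental tumors and -0.33 to 0.40 in GR KO tumors.

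*Nr3c1* (ENSMUSG00000024431), which encodes the GR, lies on the minus strand of chromosome 18 from 39410545 to 39519421 (GRCm38). The reads come from transcript 3′ ends, and the place of the edit in the transcript was not located here, so that its level does not check the knockout. Parental cells had 33.2, 30.0 and 35.6 CPM with DMSO and 39.5 and 33.4 CPM with GC. GR KO cells had 24.8, 21 and 16.4 CPM with DMSO and 20.9, 22.5 and 13.1 CPM with GC. Every GR KO culture lay below every parental culture, and GC and DMSO cultures overlapped within each genotype.

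With GC, *Nr3c1* averaged 36.5 ± 4.33 CPM (SD, n = 2) in parental cells and 18.8 ± 5.03 CPM (SD, n = 3) in GR KO cells. On the log2 scale they differed by -0.95 (standard error 0.24, adjusted p = 0.0384 from edgeR). The call was lost when only these groups were fitted, and without parental GC culture 1 or 2 or GR KO GC culture 2 or 3, with log2 differences of -1.10 to -0.75 and an adjusted p of up to 0.269 from edgeR. Wherever a parental GC culture is left out, the group has 1 culture, which is assumed to vary like the other groups. With DMSO the log2 difference of -0.67 did not pass (adjusted p = 0.0840 from edgeR, 0.0390 from DESeq2). The GC effect was 0.15 in parental cells (95% interval -0.38 to 0.67) and -0.14 in GR KO cells (-0.62 to 0.34), and these effects differed by 0.29 (standard error 0.32, adjusted p = 0.703 from edgeR).

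In parental control tumors *Nr3c1* stood at 63.4, 57.1, 44.9, 55.6 and 52.2 CPM. Parental GC tumors had 53.4, 24.4, 48.2, 37.3 and 49.8 CPM. The GR KO control tumors had 20.7, 27.3, 31.4, 31.8 and 23.5 CPM. All 5 GR KO control tumors were below all 5 parental control tumors, and parental GC tumor 2 fell among the GR KO control values. GR KO tumors with GC had 47.9, 21.7, 58.0, 32.5 and 49.4 CPM, a range that overlapped each other group. By mean, the order was parental control (54.6 ± 6.78), parental GC (42.6 ± 11.8), GR KO GC (41.9 ± 14.6) and GR KO control (27.0 ± 4.87 CPM; SD, n = 5 each), and no pair of neighbors in this order passed the test.

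After GC, the log2 fold change of *Nr3c1* was -0.36 (standard error 0.24, adjusted p = 0.525 from edgeR) in parental tumors. GR KO tumors gave 0.64 (standard error 0.24, adjusted p = 0.107 from edgeR), which passed without GR KO GC tumor 2 (0.80, adjusted p = 0.0360). The difference between these effects was -0.99 (standard error 0.34, adjusted p = 0.127 from edgeR). For control tumors the genotype difference of -1.02 (adjusted p = 0.0313 from edgeR) was lost without any of the 5 parental control tumors or without GR KO control tumor 1, 2 or 5, with an adjusted p of up to 0.0860. In these bulk tumors fewer cells of a type and less RNA per cell cannot be told apart.

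The number of genes detected differed between tumors. After every tumor was drawn down to 15528066 reads, 15578, 16682, 16092, 16760 and 15777 genes were detected in parental control tumors and 13405, 14792, 15142, 16762 and 14260 in GR KO control tumors. GR KO control tumors 1, 5 and 2 had the fewest genes of all 20 tumors. Parental GC tumors had 16915, 15803, 16660, 15810 and 16756, and GR KO GC tumors 16664, 15558, 16654, 15148 and 16443. With this number as a covariate, chosen after the data were seen, the log2 difference of *Nr3c1* between control tumors was -0.63 (adjusted p = 0.363 from edgeR) and its GC effect in GR KO tumors 0.22 (adjusted p = 0.758). The part of sample quality or cell content in these values was not tested.

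*Nr3c2* encodes the mineralocorticoid receptor, which also binds glucocorticoids. It had 13 and 3 counts in parental control tumors 1 and 2, 4 in parental GC tumor 1, 1 in parental GC culture 2 and 0 in the other 27 libraries. Only 2 libraries were above the floor of 3 counts, and the gene was not testable at this depth. An RNA on the other strand, *Gm10649*, overlaps its exons and had 0 counts in all libraries.

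*Hsd11b1*, the reductase that regenerates active glucocorticoid, was low in tumors. Control tumors had 3.69, 4.80, 4.48, 5.41 and 4.25 CPM when parental and 3.08, 1.55, 9.02, 4.67 and 1.41 CPM when GR KO. With GC they had 3.52, 5.02, 9.11, 4.78 and 4.96 CPM when parental and 4.82, 2.26, 4.77, 3.02 and 8.22 CPM when GR KO. All 4 groups overlapped, and 1 tumor each of the parental GC, GR KO control and GR KO GC groups stood above 8 CPM. The GC effect was 0.28 in parental tumors (95% interval -0.67 to 1.22) and 0.23 in GR KO tumors (-0.72 to 1.17).

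Cultures held few or no *Hsd11b1* transcripts. Counts were 0, 8 and 1 in parental DMSO cultures, 10 and 4 in parental GC cultures and 0 in all 6 GR KO cultures, too few for the test within cultures. Under one scaling of all 31 libraries, GR KO control tumors had a mean of 3.97 CPM and a lowest value of 1.40 CPM. The mean was 24.2-fold the floor of 0.164 CPM (3 counts per library) in GR KO DMSO cultures, a lower bound on its fold over them.

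The cytosolic HSP90 chaperones, inducible *Hsp90aa1* and constitutive *Hsp90ab1*, hold the unliganded receptor in the form that binds hormone. Near-identical copies in the genome can take their reads and those of *Ptges3*, so that these levels are uncertain. *Hsp90aa1* stood at 620, 703, 519, 691 and 415 CPM in parental control tumors and at 647, 869, 680, 1175 and 516 CPM in parental GC tumors. In GR KO tumors it was at 1014, 1221, 769, 619 and 629 CPM with control and 695, 809, 494, 500.3 and 363 CPM with GC. The groups overlapped, with the highest values in GR KO control tumors 1 and 2 and in parental GC tumor 4.

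The GC effect on *Hsp90aa1* was 0.40 in parental tumors (standard error 0.25, adjusted p = 0.499 from edgeR), against -0.57 in GR KO tumors (standard error 0.25, adjusted p = 0.169 from edgeR). The difference between these effects was 0.97 (standard error 0.36) and did not pass, with an adjusted p of 0.149 from edgeR. In cultures, *Hsp90aa1* ranged from 1246 to 1865 CPM. All GR KO cultures were above all parental cultures with the same treatment, by 0.25 on the log2 scale with either treatment, and neither difference passed (adjusted p = 0.262 with DMSO and 0.416 with GC, both from edgeR).

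*Hsp90ab1* stood at 2868, 3517, 2393, 3310 and 2414 CPM in parental control tumors and at 3137, 5773, 3992, 5280 and 2937 CPM in parental GC tumors. Parental GC tumors 2 and 4 were the highest of all tumors. GR KO tumors ranged from 2635 to 3382 CPM with control and from 2345 to 3912 CPM with GC. The GC effect in parental tumors was 0.54 (adjusted p = 0.252 from edgeR, standard error 0.22) and that in GR KO tumors -0.05 (95% interval -0.50 to 0.39). Cultures ranged from 7056 to 11029 CPM, and GC effects there were -0.21 in parental (adjusted p = 0.719 from edgeR) and 0.24 in GR KO cells (adjusted p = 0.976).

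*Ptges3* encodes p23, the cochaperone that stabilizes the closed form of HSP90 on the receptor. It ranged from 96.2 to 236 CPM in tumors and from 199 to 263 CPM in cultures. Both extremes in tumors were GR KO control samples, tumor 3 at the bottom and tumor 1 at the top. Its GC effects were 0.04, -0.33, -0.04 and 0.05 in parental tumors, GR KO tumors, parental cells and GR KO cells, with adjusted p-values of 0.357 to 0.98 from edgeR. With the covariate of genes detected, the value in GR KO tumors turned to 0.08 (adjusted p = 0.911 from edgeR).

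*Fkbp5* encodes FKBP51, the immunophilin that lowers hormone binding by the GR complex. In parental cells it stood at 47.0, 16.8 and 37.3 CPM with DMSO and at 199.9 and 138 CPM with GC. In GR KO cells the values were 34.1, 46.8 and 27.7 CPM with DMSO and 38.7, 28.2 and 15.8 CPM with GC. Both parental GC cultures were above every other culture, while GC and DMSO overlapped in GR KO cells.

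The log2 fold change of *Fkbp5* with GC was 2.33 in parental cells (standard error 0.42, adjusted p = 0.0248 from edgeR), against -0.39 in GR KO cells (95% interval -1.23 to 0.45). When only these groups were fitted, or without parental DMSO culture 2 or 3 or parental GC culture 1 or 2, the parental call was lost, with values of 2.00 to 2.63 and an adjusted p of up to 0.279 over the cultures left out. The difference between these effects was 2.72 (standard error 0.57) and did not pass, with an adjusted p of 0.102 from edgeR. Between genotypes, GC-treated cells differed by -2.61 (standard error 0.42, adjusted p = 0.00316 from edgeR), with an adjusted p of up to 0.0365 over the 5 cultures left out in turn, 2 of which leave 1 parental GC culture, and DMSO-treated cells by 0.10 (95% interval -0.73 to 0.94).

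*In vivo*, parental control tumors had 66.4, 54.9, 75.1, 73.7 and 86.3 CPM of *Fkbp5*, and parental GC tumors had 190.1, 38.6, 207, 91.4 and 193 CPM. Parental GC tumors 1, 3 and 5 were the 3 highest of all tumors, tumor 4 was just above the controls and tumor 2 was below all 5 of them. GR KO control tumors had 14.2, 17.6, 33.5, 35.9 and 25.0 CPM, and GR KO GC tumors had 127, 76.5, 119.7, 59.7 and 133 CPM. Every GR KO GC tumor was above every GR KO control tumor, and every GR KO control tumor was below every parental control tumor.

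With GC, *Fkbp5* rose in GR KO tumors by 2.03 on the log2 scale (standard error 0.35, adjusted p = 0.00269 from edgeR), from 25.2 ± 9.52 to 103 ± 32.8 CPM (SD, n = 5 each). Leaving out single tumors gave 1.88 to 2.20 with an adjusted p of up to 0.0113, and the covariate of genes detected gave 1.40 (adjusted p = 0.0398 from edgeR). The cells of the host keep the GR in these tumors. In parental tumors the log2 fold change was 1.02 (standard error 0.34) and did not pass (adjusted p = 0.183 from edgeR), except without parental GC tumor 2 (1.26, adjusted p = 0.0471). The parental effect minus the GR KO effect was -1.01 (standard error 0.48, adjusted p = 0.243 from edgeR).

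For control tumors the genotype difference of *Fkbp5* was -1.50 (standard error 0.35, adjusted p = 0.0296 from edgeR). This call was lost without any of the 5 parental control tumors or without GR KO control tumor 1, 2 or 5, with values of -1.66 to -1.35 and an adjusted p of up to 0.0863. It was also lost with the covariate of genes detected, which gave -0.91 (adjusted p = 0.313 from edgeR). A fibroblast, an endothelial and a keratinocyte marker also differed between these control tumors, and macrophage and endothelial sums did not overlap (values below). The part of these cell types in the *Fkbp5* and *Nr3c1* differences was not tested. Among GC-treated tumors the genotypes differed by -0.48 (95% interval -1.19 to 0.22).

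*Fkbp4* encodes FKBP52, the immunophilin that links the GR complex to dynein and favors hormone binding. Parental cells had 715, 864 and 638 CPM with DMSO and 495 and 556 CPM with GC, and both GC cultures were below all 3 DMSO cultures. GR KO cells had 456, 408 and 516 CPM with DMSO and 435, 488 and 589 CPM with GC, with overlap between treatments. Between DMSO-treated cells *Fkbp4* was lower in GR KO by -0.68 on the log2 scale (standard error 0.16, adjusted p = 0.0204 from edgeR), and all 3 GR KO cultures were below all 3 parental cultures. This call was lost without parental DMSO culture 1 or 2 or GR KO DMSO culture 1 or 2, with values of -0.78 to -0.55 and an adjusted p of up to 0.0990.

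The GC effect on *Fkbp4* in parental cells was -0.49 (standard error 0.18, adjusted p = 0.418 from edgeR), opposite in sign to that of *Fkbp5* but not past the threshold. Parental minus GR KO, the effects on *Fkbp4* differed by -0.62 (standard error 0.24, adjusted p = 0.532 from edgeR). With GC, the genotypes differed by -0.06 (95% interval -0.45 to 0.33).

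In parental tumors *Fkbp4* stood at 198, 221, 193, 165 and 202 CPM with control and 203, 336, 212, 401 and 222 CPM with GC. In GR KO tumors the values were 379, 282, 236, 182 and 224 CPM with control and 208, 232, 202, 224 and 189.9 CPM with GC. The high values came from parental GC tumors 2 and 4, the same tumors that were lowest in their group for *Fkbp5*, and from GR KO control tumors 1 and 2, likewise lowest in theirs. No *in vivo* comparison of *Fkbp4* passed. The GC effect was 0.49 in parental tumors (adjusted p = 0.286 from edgeR) and -0.30 in GR KO tumors (adjusted p = 0.386 from edgeR), and these differed by 0.79 (standard error 0.29, adjusted p = 0.149 from edgeR). The negative sign in GR KO tumors depends on the model, as the covariate of genes detected gave 0.08 there (adjusted p = 0.898 from edgeR) and a difference of 0.43 (adjusted p = 0.450).

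*Ncoa2* encodes the coactivator GRIP1, which binds the agonist-bound receptor and takes part in both activation and repression. It ranged from 14.6 to 36.7 CPM in tumors, with the lowest value in parental GC tumor 2 and the highest in parental control tumor 4. Cultures ranged from 5.22 to 9.99 CPM. The GC effect was -0.32 in parental tumors (95% interval -0.77 to 0.13) and 0.09 in GR KO tumors (-0.37 to 0.54). In cells it was -0.09 when parental (-0.76 to 0.58) and 0.05 when GR KO (-0.54 to 0.64).

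*Nrip1* encodes RIP140, a ligand-dependent corepressor of nuclear receptors. Parental control tumors had 130, 179, 105, 153 and 111 CPM, and parental GC tumors had 309, 330, 285, 269 and 321 CPM. GR KO tumors had 179, 149.5, 157, 108 and 159.9 CPM with control and 180.2, 158, 169.6, 134 and 129 CPM with GC. The 5 parental GC tumors were above all 15 other tumors, and the other groups overlapped.

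With GC, *Nrip1* rose from 135 ± 30.5 to 303 ± 25.3 CPM in parental tumors (SD, n = 5 each), by 1.16 on the log2 scale (standard error 0.18, adjusted p = 0.00156 from edgeR). In GR KO tumors the levels were 151 ± 26.2 and 154 ± 22.2 CPM (SD, n = 5 each), with a GC effect of 0.03 (95% interval -0.33 to 0.40). GC-treated tumors differed between genotypes by -0.97 (standard error 0.18, adjusted p = 0.00833 from edgeR), and control tumors by 0.16 (95% interval -0.21 to 0.52). Leaving out single tumors kept the call after GC in parental tumors (1.09 to 1.28, adjusted p of up to 0.00759) and that between GC-treated tumors (-1.04 to -0.92, adjusted p of up to 0.0417).

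The GC effect on *Nrip1* in parental tumors exceeded that in GR KO tumors by 1.13 (standard error 0.25), which missed the threshold with an adjusted p of 0.0559 from edgeR. It passed without parental control tumor 2, parental GC tumor 3 or GR KO control tumor 4, and over all single tumors left out its adjusted p ranged from 0.0157 to 0.144. In edgeR it also passed with the size factors of DESeq2 and with a filter of at least 10 counts in every library. DESeq2 itself called it, within the limit given above for that tool. With the covariate of genes detected, *Nrip1* stood at 1.17 after GC in parental tumors (adjusted p = 4.85e-04 from edgeR) and -0.98 between GC-treated tumors (adjusted p = 0.00313). The covariate bears little on these 2 values, because the number of genes detected averaged 16178 in parental control, 16389 in parental GC and 16093 in GR KO GC tumors, against 14872 in GR KO control tumors. In cultures *Nrip1* ranged from 16.9 to 34.7 CPM, and its GC effect in parental cells was -0.20 (95% interval -0.67 to 0.27).

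**Figure D3:**
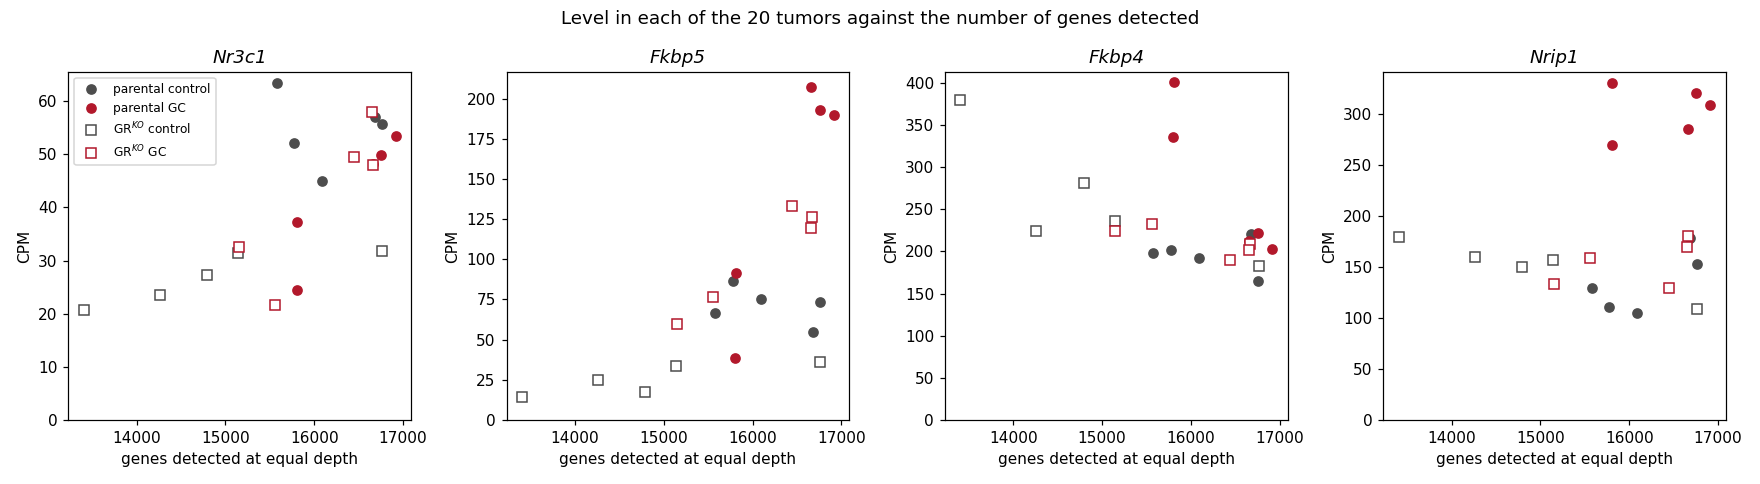
CPM of *Nr3c1*, *Fkbp5*, *Fkbp4* and *Nrip1* in the 20 tumors against the number of genes detected after each tumor was drawn down to 15528066 reads, with filled points for parental and open points for GR KO, gray for control and red for GC. The tumor with the fewest genes, GR KO control tumor 1 at 13405, had the lowest *Nr3c1* (20.7 CPM) and *Fkbp5* (14.2 CPM).

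Textbook targets of the receptor, such as *Tsc22d3* (GILZ), *Per1* and the metallothioneins, give the setting for these levels. Their list, like the other lists, was chosen with earlier results of these data known. GC raised 8 of 11 tested in parental tumors (median 1.73), led by *Tsc22d3* (2.34), *Per1* (2.19) and *Mt1* (1.81), and lowered 0. It raised 5 of 11 (median 1.19) in GR KO tumors, led by *Tsc22d3* (1.77), *Per1* (1.29) and *Klf9* (1.25), and 1, *Mt1*, differed between the effects (1.90). In parental cells 7 of 10 tested rose (median 1.69), led among these by *Mt2* (3.76), *Tsc22d3* (3.09) and *Per1* (2.77). The filter, which asks for 3 samples, left *Zbtb16* out of the tests in cultures. It stood at 9.45 and 9.99 CPM in the 2 parental GC cultures and at 0 in all other cultures. By edgeR and by DESeq2 0 of 10 were DEGs in GR KO cells (median -0.04). The GC effects differed between parental and GR KO cells for 5 of 10, led by *Mt2* (3.70), *Tsc22d3* (3.14) and *Per1* (3.00). With GC, 4 of 11 were lower in GR KO than in parental tumors, led by *Cebpd* (-1.66), *Mt1* (-1.35) and *Per1* (-1.24), and 8 of 10 were lower in GR KO than in parental cells. The medians of all genes in these comparisons lay between -0.04 and 0.05. Single libraries ended the call of *Mt1* for the difference in tumors (parental control tumor 3, parental GC tumor 4, GR KO control tumor 2 or GR KO GC tumor 5, adjusted p of up to 0.0746 from edgeR) and of *Per1* between GC-treated tumors (parental GC tumor 3 or 5 or GR KO GC tumor 1, 2, 3 or 5, up to 0.0845). Of the 5 targets that differed between the effects in cells, *Sgk1* and *Mt1* were lost without parental GC culture 2, and *Sgk1* also without parental DMSO culture 1 or parental GC culture 1.

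Of 18 further chaperones and cochaperones of the receptor, all tested, edgeR called 0 after GC in parental tumors (lowest adjusted p 0.186), and DESeq2 also called 0. GC lowered 1, the ubiquitin ligase *Stub1*, in GR KO tumors (-1.13, adjusted p = 0.0158 from edgeR), and *Stub1* differed between control tumors of the genotypes, higher in GR KO (1.05, adjusted p = 0.0404). These comparisons share the GR KO control tumors. The first call was lost without GR KO control tumor 1 or GR KO GC tumor 3 (adjusted p of up to 0.0645 from edgeR), and the other without parental control tumor 1, 2, 3 or 4 or GR KO control tumor 1, 2 or 5 (up to 0.145). For the difference between GC effects in tumors edgeR called 0 of 18 (lowest adjusted p 0.0836), and 4 were called by DESeq2 alone, with the same limit. In the 5 comparisons within cultures both tools called 0 of 18. Of 11 heat shock response genes, 4 of which are also on that list, GC raised the collagen chaperone *Serpinh1* in GR KO tumors (1.80, adjusted p = 0.00798) and the small heat shock gene *Hspb1* in parental cells (1.48, adjusted p = 0.0127). *Hspb1* was also higher in GR KO than in parental DMSO cells (1.19, adjusted p = 0.00594), while its call in parental cells was lost without either GC culture (adjusted p of up to 0.117 from edgeR).

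Among 19 tested of 22 further coregulators, GC lowered the histone methyltransferase gene *Ehmt2* in GR KO tumors (-1.16, adjusted p = 0.0106 from edgeR), and the corepressor gene *Ncor1* was higher in GR KO control tumors than in parental ones (0.87, adjusted p = 0.0393). The *Ncor1* call was lost without any of the 5 parental control tumors or without GR KO control tumor 1, 2 or 5 (adjusted p of up to 0.122 from edgeR). Neither tool called any of the 19 after GC in parental tumors or in a comparison within cultures. Of 12 genes for ligand metabolism and transport, 8 were tested in tumors and 5 in cultures. The efflux pump gene *Abcb1a* differed between the genotypes, lower with GR KO, in control tumors (-1.31, adjusted p = 0.0252 from edgeR) and DMSO cells (-2.49, adjusted p = 0.00420), and the other genes tested were not DEGs within tumors or cultures. Without parental control tumor 1 or 4 its call in tumors was lost (adjusted p of up to 0.0628 from edgeR). Of 4 steroid receptor relatives, 2 were tested and edgeR called 0 in these 10 comparisons, while DESeq2 alone called 1 for GC in GR KO tumors (lowest adjusted p 0.0771 from edgeR) and 1 for the difference between the GC effects in tumors (0.111), again with that limit.

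Tumors and cultures were compared in a joint fit of all 31 libraries, where host cells, growth and preparation cannot be told apart. Of the 9 genes tested, all 9 were DEGs between parental control tumors and parental DMSO cells (5 higher and 4 lower in tumors), beside 46.7% of 16273 genes. Between GR KO control tumors and GR KO DMSO cells 6 of 9 were DEGs, beside 54.8% of all genes. The median of all genes was shifted by 0.37 in the parental and 0.33 in the GR KO comparison, and changes are to be read relative to it.

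The 3 chaperone genes and *Fkbp4* lay lower in tumors, on the far side of zero from that shift. For parental samples the log2 differences were -1.96 for *Fkbp4*, -1.58 for *Hsp90ab1*, -1.21 for *Hsp90aa1* and -0.79 for *Ptges3*, with adjusted p-values of 1.92e-09 to 0.00165 from edgeR. For GR KO samples they were -0.86, -1.45, -0.94 and -0.58, and *Ptges3* did not reach the minimum fold change (adjusted p = 0.0156 from edgeR). *Ptges3* did pass without GR KO control tumor 1, 2 or 5 or GR KO DMSO culture 1 or 2, with values of -0.77 to -0.45 over the libraries left out. The further chaperones followed in direction, with 14 of 18 lower and 0 higher in parental tumors and 10 of 18 lower and 0 higher in GR KO tumors. *Hspa4* (-1.98 and -2.42), *Ppp5c* (-1.71 and -2.16) and *Ahsa1* (-1.66 and -2.03) had the largest differences. Heat shock response genes were lower for 6 and 7 of 11 and higher for 0, led by *Hspe1* (-1.79) in parental and *Serpinh1* (-3.05) in GR KO tumors.

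Coregulators were higher in tumors for the 2 named genes. *Nrip1* differed by 2.23 in parental and 2.74 in GR KO samples (adjusted p = 3.16e-10 and 4.32e-12 from edgeR), and *Ncoa2* by 2.11 and 1.53 (adjusted p = 2.44e-07 and 1.85e-05). Further coregulators went both ways, with 4 higher and 6 lower in parental tumors and 6 of each in GR KO tumors. Of all genes, 46.7% (4955 higher and 2640 lower) were DEGs in parental and 54.8% (5560 higher and 3357 lower) in GR KO tumors. The most increased of the further coregulators were *Ncoa1* (1.43), *Ncoa3* (1.30) and *Ep300* (1.27) in parental tumors and *Ncoa3* (1.95), *Ehmt2* (1.61) and *Crebbp* (1.45) in GR KO tumors. *Prmt1* (-2.18 and -1.38), *Smarca4* (-2.08 and -1.56) and *Smarcd1* (-1.67 and -2.13) were the most decreased in both. The *Ncoa1* call was lost without parental DMSO culture 2 or 3 (adjusted p of up to 0.112 from edgeR). *Nr3c1* was higher in parental tumors by 0.69 (adjusted p = 0.0377 from edgeR) and *Fkbp5* by 1.03 (adjusted p = 0.0435 from edgeR). The *Nr3c1* call was kept only without parental control tumor 3 and the *Fkbp5* call only without parental control tumor 2 or parental DMSO culture 1, and over the single libraries left out the adjusted p reached 0.121 and 0.227. With no low-count filter *Nr3c1* did not pass either. In GR KO samples neither passed (0.34 and -0.55, adjusted p = 0.283 and 0.249 from edgeR).

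Markers of other cell types were abundant in tumors. The 5 macrophage markers, of which *C1qa* was the most abundant, summed to 3424, 3373, 2695, 3228 and 2143 CPM in parental control tumors and 3629, 6029, 2103, 5123 and 2969 CPM in parental GC tumors. In GR KO tumors they summed to 7125, 5735, 3538, 4640 and 5012 CPM with control and 3267, 5351, 2515, 3261 and 2779 CPM with GC. Parental GC tumors 2 and 4 and GR KO control tumors 1 and 2, which had the low *Fkbp5* and high *Fkbp4* values of their groups, also had the highest sums of these markers in their groups. These sums are mostly *C1qa*, which averaged 4634 of 5210 CPM in GR KO control tumors. All macrophage sums of GR KO control tumors were above those of parental control tumors. From parental to GR KO control tumors the mean of *C1qa* went from 2378 to 4634 CPM, that of *Adgre1* from 91.0 to 74.9 CPM and that of *Mrc1* from 43.5 to 30.4 CPM. Means of *Csf1r* were 394 and 401 CPM, and those of *Cd68* 66.2 and 69.0 CPM. Between control tumors edgeR called 0 of 5 macrophage markers (lowest adjusted p 0.0781).

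The 5 fibroblast markers, led by *Col3a1* or *Col1a1*, summed to 4941, 5889, 5829, 5808 and 5700 CPM in parental control tumors and 7911, 6255, 8474, 5889 and 8008 CPM in parental GC tumors. The sums were 3147, 3295, 3625, 5099 and 4129 CPM in GR KO control tumors and 6667, 6177, 7253, 5805 and 6936 CPM in GR KO GC tumors. Every GR KO GC tumor was above every GR KO control tumor, as for *Fkbp5*, and 3 of 5 fibroblast markers rose there: *Pdgfra* (1.17), *Col3a1* (1.03) and *Col1a1* (0.64). Means of the other markers in GR KO tumors went from 232 to 265 CPM for *Dcn* and from 136 to 131 CPM for *Lum*. These sums are mostly *Col1a1* and *Col3a1*, which averaged 2004 and 1475 of 3859 CPM in GR KO control tumors. Between control tumors *Col3a1* was lower when GR KO (-0.997, adjusted p = 0.0252 from edgeR), a call lost without parental control tumor 2, 3 or 4 or GR KO control tumor 1 or 2 (up to 0.0701). The endothelial sums of 46.6 to 68.9 CPM in parental and 85.6 to 104 CPM in GR KO control tumors did not overlap. *Kdr* was higher in GR KO (43.1 to 65.1 CPM, against 14.04 to 37.9 CPM, log2 difference 0.98, adjusted p = 0.0472 from edgeR), and the keratinocyte marker *Krt1* was lower (22.7 to 41.9 CPM, against 43.1 to 135 CPM, -1.21, adjusted p = 0.0422). These 2 calls were lost in 9 and 8 of 10 fits without a tumor (adjusted p of up to 0.133 and 0.116 from edgeR). Keratinocyte markers went both ways between control tumors. From parental to GR KO, means went from 1014 to 2277 CPM for *Krt14* and from 676 to 969 CPM for *Dsp*. They went from 30.3 to 11.7 CPM for *Krt10* and from 172 to 164 CPM for *Krt5*. The mean keratinocyte sum went from 1970 to 3456 CPM. The GC calls of *Pdgfra* and *Col1a1* were lost without GR KO control tumor 1, 2 or 3 or GR KO GC tumor 1, 3 or 5, and that of *Pdgfra* also without GR KO control tumor 5 (adjusted p of up to 0.121 from edgeR), while that of *Col3a1* was kept without any one tumor. In cultures the fibroblast sum was 62.9 to 278 CPM. The part of these cell types in the results on the receptor pathway was not tested.

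In GR KO tumors, genes of other marker lists were DEGs with GC. T cell markers, led by *Cd2*, summed to 112 to 257 CPM with control and 45.7 to 99.1 CPM with GC, and *Cd2* (-1.94) and *Cd3d* (-1.26) fell. *Kdr*, the most abundant of the endothelial markers, fell (-1.32) while their sum was 85.6 to 104 CPM with control and 43.2 to 52.7 CPM with GC. In parental tumors the endothelial sum was 46.6 to 68.9 CPM with control and 19.4 to 35.9 CPM with GC, and *Cd2* was at 40.2 to 79.4 and 19.2 to 37.9 CPM, without overlap, whereas the T cell sums of 72.4 to 151 and 55.1 to 98.5 CPM overlapped. The fibroblast marker *Col1a1* was at 1909 to 2346 CPM with control and 2706 to 3526 CPM with GC in parental tumors, also without overlap and in the direction of *Nrip1*, while *Cd4*, *Cdh5* and *Pmel*, at low levels, were below control in all 5 GC tumors. The other fibroblast markers overlapped and went both ways. From control to GC, means went from 2944 to 3546 CPM for *Col3a1* and from 337 to 451 CPM for *Dcn*. They went from 24.9 to 20.4 CPM for *Pdgfra* and from 168 to 127 CPM for *Lum*. There edgeR called 0 of 5 endothelial, T cell and fibroblast markers each (lowest adjusted p 0.0674 for *Kdr* at -1.02, 0.116 for *Cd2* at -0.96 and 0.134 for *Col1a1* at 0.55). Between GC-treated tumors of the genotypes, the endothelial, neutrophil and adipocyte sums did not overlap. Endothelial and neutrophil sums were higher in GR KO than in parental GC tumors, and adipocyte sums were lower. In this comparison edgeR called 0 genes of any marker list (lowest adjusted p 0.0667 for *Myh4* at -1.39). The part of these cell types in the *Nrip1* values was not tested. Of the keratinocyte markers, led by *Krt14*, *Krt10* (2.13) and *Krt1* (1.85) rose and *Krt14* (-1.42) and *Dsp* (-1.18) fell. *Mrc1* rose (1.20) as 1 of the 5 macrophage markers, whose other values were -0.72 for *C1qa* (adjusted p = 0.129 from edgeR), -0.35 for *Cd68*, 0.25 for *Adgre1* and 0.03 for *Csf1r*. The muscle gene *Myh4* fell (-1.33), and adipocyte markers gave 0 DEGs of 5 (lowest adjusted p 0.240). The calls of *Cd3d*, *Krt14*, *Mrc1* and *Myh4* were lost without GR KO control tumor 1 or GR KO GC tumor 3 or 5. All of these but *Myh4* were also lost without GR KO control tumor 2 or GR KO GC tumor 1, *Krt14* and *Mrc1* without GR KO control tumor 3, and *Krt14* without GR KO GC tumor 2 (adjusted p of up to 0.0882 from edgeR). *Krt10* was lost without GR KO GC tumor 5 (1.54, adjusted p = 0.0636 from edgeR) and stood at 3.06 without GR KO control tumor 4. In parental tumors, neutrophil markers, led by *S100a8*, summed to 22.7 to 1277 CPM with control and 10.1 to 38.8 CPM with GC, and *S100a8* (-3.96) and *S100a9* (-5.03) were DEGs. Parental control tumor 5 held the sum of 1277 CPM, the other 4 control tumors summed to 22.7, 67.5, 244 and 32.9 CPM, and without tumor 5 neither gene passed (-2.05 and -2.98, adjusted p = 0.316 and 0.0657 from edgeR). The *S100a8* call was also lost without parental control tumor 3 or parental GC tumor 1, 2, 3 or 4. In GR KO tumors the neutrophil sums of 178 to 1022 CPM with control and 49.8 to 229 CPM with GC overlapped, with 0 DEGs of 5 (*S100a8* -1.91 and *S100a9* -2.18, adjusted p = 0.173 and 0.119 from edgeR). The difference between the GC effects of parental and GR KO tumors was -2.06 for *S100a8* and -2.85 for *S100a9* (adjusted p = 0.331 and 0.192 from edgeR). In all cultures the T cell markers were at 0, neutrophil markers summed to at most 0.162 CPM and macrophage markers to 0.966 to 4.00 CPM, of which *Cd68* was the most abundant.

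Over the 20 tumors, levels on the log2(CPM + 1) scale were correlated as a description, and the tumors share their 4 groups. The genes most like *Nr3c1* of 15918 compared were *Klf7* (Pearson r 0.858, Spearman rho 0.791), *Usp25* (0.849 and 0.761) and *Ddx26b* (0.846 and 0.797). Without GR KO control tumor 1 and GR KO GC tumor 2, the values of r were 0.836, 0.806 and 0.854. *Fkbp5* was most like *Appl2* (r 0.918, rho 0.893), *Col3a1* (0.913 and 0.847) and *Add3* (0.912 and 0.899), and r was 0.878, 0.850 and 0.850 without GR KO control tumors 1 and 2. After group means were taken out, r was 0.869, 0.732 and 0.697 for these 3 genes, which ranked 151, 1053 and 1343 of 15918. *Hsd11b1*, at low counts, was most like *Rgs20* (r 0.826, rho 0.690), *Dppa3* (0.798 and 0.783) and *B330016D10Rik* (0.777 and 0.638), with r of 0.728, 0.736 and 0.673 without GR KO control tumors 2 and 5.

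Among the 9 genes themselves, 36 pairs were compared in the same way. *Hsp90aa1* and *Hsp90ab1* moved together (r 0.722, rho 0.811, and r 0.837 with group means taken out), as did *Fkbp4* and *Hsp90aa1* (r 0.731, rho 0.702). *Fkbp5* and *Fkbp4* moved against each other within groups (r -0.780 with group means taken out, -0.437 without). With group means taken out, *Fkbp5* also had r of -0.746 with *Ptges3*, -0.665 with *Hsp90ab1*, -0.575 with *Hsp90aa1* and -0.253 with *Nrip1*. It had r of 0.408 with *Hsd11b1* and 0.352 with *Ncoa2*. *Nr3c1* and *Fkbp5* had r 0.71 and rho 0.555, and r 0.763 with group means taken out. Number of genes detected and cell content are shared by all genes of a tumor, and their part was not tested.

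In GRCm38, *Nr3c2* lies on chromosome 8 from 76899442 to 77245012 and *Ptges3* on chromosome 10 from 128058954 to 128077272, both on the plus strand. The others lie on the minus strand: *Fkbp5* on chromosome 17 from 28399094 to 28517527, *Hsp90ab1* on the same chromosome from 45567775 to 45573271 and *Hsp90aa1* on chromosome 12 from 110690605 to 110702728. *Fkbp4* spans 128429735 to 128438677 on chromosome 6, *Nrip1* 76287400 to 76373827 on chromosome 16, and on chromosome 1 *Hsd11b1* spans 193221634 to 193264075 and *Ncoa2* 13139105 to 13374083.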

How the data were processed

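RNA of 20 tumors and 11 cultures was prepared with a 3′ mRNA kit (QuantSeq FWD). The deposited values are unnormalized integer counts for 39179 genes, which the authors made with Trim Galore (trimming), STAR (alignment, GRCm38) and featureCounts (Ensembl release 75). The strand setting of featureCounts was not named in the sources used here, and the methods state that defaults were used where nothing else is given. The submitters' processing notes name edgeR, DESeq2 and the build mm10. Depths are given with the results, and samples were grouped by their labels.

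A gene entered a fit if 3 samples or more reached a CPM of 0.5, which kept 15919 in tumors, 12525 in cultures and 16273 in a joint fit. Counts were scaled by TMM and fitted over all groups of an experiment by edgeR 4.0.16 (R 4.3.3, quasi-likelihood test), with Benjamini-Hochberg adjustment over all genes tested. DEGs passed an adjusted p of 0.05 and a fold change of 1.5. Intervals are 95%. Likeness used log2(CPM + 1). Positions came from GENCODE M21. The scripts were tested on simulated data, where DESeq2 made more false calls than edgeR. The simulated spread was that estimated by edgeR, which may favor edgeR.

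Alternatives were DESeq2 1.42.0, its size factors within edgeR, a minimum fold change of 2 or none, fits with only the compared groups, a block for the replicate number, a pseudocount of 0.1, no filter, a filter of 10 counts in every library, and each library left out in turn. A covariate, how many genes were detected at equal depth, and leaving out libraries for genes of the lists were chosen after seeing the data. A change of sign was counted as a reversal only where the reported log2 fold change exceeded its standard error.

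The members, the 6 pathway lists and the 9 marker lists were chosen with earlier results of these data known. All 10 genes are named. From each pathway list at most 3 DEGs per direction with the largest change are named in each comparison. For likeness, the 3 genes with the highest r are named.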

Additional observations from a re-analysis of the deposited data

Results flagged for a closer look

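In 38 sets of a gene and a tumor group, the highest or lowest tumor was compared with the nearest other tumor, and in 3 sets this gap, as a share of the group's range, was above Dixon's 95% limit for 5 samples. Chance gives about 1 in 20 such sets. *Nr3c2* stood at 0.828 CPM in parental control tumor 1 and at 0.204 CPM in parental GC tumor 1, where the other tumors of these groups had 0 to 3 counts. In parental GC tumors the other 4 had 0 counts, so that any count would be picked out, and this one is 4 counts against the floor of 3. *Hsd11b1* stood at 9.11 CPM in parental GC tumor 3, where the other 4 tumors of the group had 3.52 to 5.02 CPM. The cause of these values was not tested.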

How the results depend on the processing

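Over all 12 comparisons, log2 fold changes of single members kept their direction and side of the threshold in 820 of 850 fits with another setting, with 9 gaining and 16 losing the threshold and 5 changing sign, and in 897 of 948 fits without a library, with 10 gaining and 41 losing it. Most of these fits are of values that were not called. The 9 calls within tumors and cultures were lost in 28 of 71 fits without a library and in 9 of 77 fits with another setting, and the 15 calls of the joint fit in 13 of 120 and 7 of 118. Counts of members called stayed within 1.5 times the reported count in 84 of 99 fits with another setting and in 84 of 109 fits without a library. Genes of the pathway and marker lists that were called kept their call in 1786 of 1943 fits without a library, and 0 changed sign, in a test chosen after seeing the data. Counts for the pathway lists were within 1.5 times in 545 of 594, and 78 of 80 mean levels moved by less than 1 SD. The filter of at least 10 counts in every library could not give a value for *Hsd11b1* in the joint fit.

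With a minimum fold change of 2, the members called fell from 1 to 0 between GC-treated tumors and between DMSO-treated cells of the genotypes, and from 2 to 1 between GC-treated cells. DESeq2 called 1 in place of 0 for the difference between GC effects, in tumors and in cells, and 2 in place of 1 between DMSO-treated cells. For the difference in tumors, DESeq2's size factors and the filter of 10 counts each gave 1 in place of 0, and in cells no low-count filter gave 1. Fits of the compared groups alone gave 0 in place of 1 for GC in parental cells and 1 in place of 2 between GC-treated cells. The covariate of genes detected, chosen after seeing the data, gave 0 in place of 2 between control tumors. It also turned the sign of *Fkbp4* (0.0838) and *Ptges3* (0.0798) after GC in GR KO tumors, of *Ptges3* in the difference between GC effects in tumors (-0.00586), and of *Fkbp4* (-4.97e-04) and *Ptges3* (-0.21) between control tumors. The cause was not tested.

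Without single libraries, members called ranged from 1 to 2 for GC in parental tumors, for GC in GR KO tumors and between GC-treated cells. They ranged from 0 to 2 between control tumors, and from 0 to 1 for the difference between GC effects in tumors, for GC in parental cells and between DMSO-treated cells.

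No label says that a replicate number marks a shared animal, litter, batch or day. Library names give all 11 cultures the same date, with a letter in place of the number. Over 30 pairs of tumors with the same number, their deviations from the group mean correlated by 0.0583 on average (-0.543 to 0.415), and those of cultures by 0.0198 over 15 pairs. The sample of the same number was the closest of its group in 8 of the 30 pairs of tumors and 5 of the 15 pairs of cultures, where 6 and 5.33 would be so at random, and pairs share samples. With the replicate number as a block, the members called were 1 in place of 0 for the difference between GC effects in tumors, 0 in place of 1 for GC in parental cells (*Fkbp5* was lost) and 1 in place of 2 between GC-treated cells. Counts of 3 or fewer limit *Nr3c2* in all libraries but 2 and *Hsd11b1* in most cultures.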
